A study of Homo sapiens with 14 samples.

Results

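In RH30 rhabdomyosarcoma cells, 323 sites had an ATAC-seq peak in both DMSO libraries and both libraries labelled shCtrl, and in none of the 4 libraries labelled shKDM4B. They were chosen by that pattern among 202912 regions, the union of the 10 RH30 peak lists after each was trimmed to its 93488 strongest peaks. They made up 0.159% of all regions and 0.771% of the 41906 control-open sites, meaning regions with a peak in all 4 DMSO and shCtrl-labelled libraries. The pattern itself is therefore no finding, and no test is given for it. The libraries treated with QC6352 and those of LHCN myoblasts played no part in the choice of the sites, although the QC6352 lists helped to set region borders.

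The library names written inside the peak lists contradict the sample titles for all 6 hairpin libraries. The lists of the samples titled shKDM4B-813 name their peaks after sh814, those titled shKDM4B-814 name them after shCtrl, and those titled shCtrl name them after sh813. The names in the other 8 lists fit their titles. Nothing in the labels or lists shows which record is right, and "labelled" below always refers to the sample title. The description of the sites as lost with KDM4B hairpins holds only by the titles. By the names inside the lists, the same sites had peaks with DMSO and sh813 and none with sh814 and the control hairpin.

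The study used ATAC-seq, in which the Tn5 transposase cuts open DNA and a peak marks an accessible stretch, on 14 libraries in 7 groups of 2. RH30 is a cell line of alveolar rhabdomyosarcoma that carries its own PAX3-FOXO1 fusion. Its cells were transduced for 72 h with shKDM4B-813, shKDM4B-814 or the control hairpin shCtrl, or were given 200 nM QC6352 or its vehicle, 0.1% DMSO, for a time the labels do not set apart from those 72 h. LHCN, an immortalised human myoblast line, overexpressed PAX3-FOXO1 or carried the empty vector for 72 h. Nothing in the labels says that replicates were separate cultures, so the spread between them may be technical, and knockdown of KDM4B cannot be read from this assay.

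KDM4B belongs to the KDM4 family of histone demethylases, enzymes that take methyl groups off histone H3 and so counter a mark of silent heterochromatin. QC6352 inhibits the KDM4 enzymes. PAX3-FOXO1 joins the DNA-binding part of PAX3 to the activating part of FOXO1 and drives a myogenic but undifferentiated programme in this tumour.

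The libraries labelled shKDM4B-814 resembled the DMSO libraries more than the libraries labelled shCtrl did. Likeness was measured as regions with a peak in both libraries over regions with a peak in either (the Jaccard index). It averaged 0.569 between the shKDM4B-814-labelled and DMSO libraries (0.547 to 0.595 over 4 pairs). It averaged 0.527 between the shKDM4B-813-labelled and DMSO libraries (0.514 to 0.544), and 0.445 between the shCtrl-labelled and DMSO libraries (0.441 to 0.450). DMSO and the libraries labelled shKDM4B-813 keep their status as control and knockdown by title and by list name alike. Between those groups alone, 8940 sites had a peak in both DMSO libraries and in neither library labelled shKDM4B-813. Of these, 4286 also had no peak in either library labelled shKDM4B-814, and 1598 had a peak in both libraries labelled shCtrl. The 323 sites meet both conditions. Other pairs ran the other way. The libraries labelled shKDM4B-813 and shKDM4B-814, which share a target by title, averaged 0.564. Those labelled shKDM4B-813 and shCtrl, which share a target by list name, averaged 0.416, the lowest of the pairs of RH30 groups.

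The 323 sites were weak in the control libraries that define them. Each peak was given a within-list percentile, where 100 is the strongest peak of a trimmed list. The lowest of the 4 control percentiles had a median of 9.95 (quartiles 4.15 and 22.0, highest 51.2) over the 323 sites. Over the 36312 kept sites, which had a peak in all 4 shKDM4B-labelled libraries too, the median was 67.7 (quartiles 46.6 and 83.6). By library, the median percentile of the 323 sites was 34.1 and 37.1 in the libraries labelled shCtrl, and 23.4 and 29.0 in the DMSO libraries. They therefore stood somewhat higher in the shCtrl-labelled lists than in the DMSO lists. Their median fold over background, as the authors' peak caller gave it, was 5.94 and 6.24 in the shCtrl-labelled libraries and 5.65 and 5.74 in the DMSO libraries. The kept sites had median folds of 10.0 and 10.6 with shCtrl labels and 15.6 and 14.9 with DMSO.

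**Figure D1:**
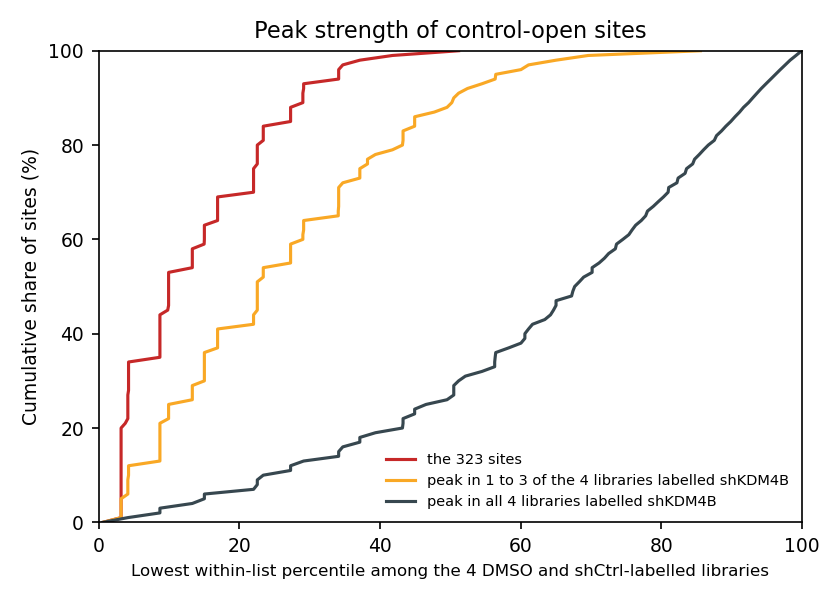
Cumulative share of control-open sites (vertical axis, %) against the lowest within-list percentile among the 4 DMSO and shCtrl-labelled libraries (horizontal axis), for the 323 sites, for sites with a peak in 1 to 3 libraries labelled shKDM4B, and for the 36312 kept sites. The median was 9.95 for the 323 sites and 67.7 for the kept sites, and the steps come from peaks with tied values.

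Low strength and absence went together. In the lowest band of control strength, percentiles 0 to 25, 272 of 6776 control-open sites (4.01%) belonged to the 323. Between 25 and 50 it was 50 of 7785 (0.642%), between 50 and 75 it was 1 of 13076, and above 75 it was 0 of 14269. The trimmed lists ended at a −log10 q of 7.11 and 6.17 for the libraries labelled shKDM4B-813 and of 4.81 and 2.21 for those labelled shKDM4B-814. They ended at 5.39 and 6.19 for the libraries labelled shCtrl and at 5.51 and 5.64 for DMSO. The median −log10 q of the 323 sites was 8.02 and 8.90 with shCtrl labels and 8.11 and 8.27 with DMSO. These medians lay nearer to the ends of the lists labelled shKDM4B-813 than to those labelled shKDM4B-814. Read depth is unknown and q values of different libraries are not on 1 scale. The distances therefore do not show how nearly a site entered a list.

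Most of the sites were not empty in the hairpin lists as deposited. Of the 323, 120 (37.2%) had no peak in any deposited list labelled shKDM4B. Another 118 had a peak cut off by trimming in 1 of the 4 lists, 77 in 2 and 8 in 3. These cut-off peaks came mostly from the libraries labelled shKDM4B-813, where 130 and 142 sites had one, at median folds of 4.86 and 4.51. At 23 and 16 of these sites the peak was tied at the limit and lost by position alone. The trimmed lists ended at folds of 5.67 and 5.33 with shKDM4B-813 labels. They ended at 4.83 and 5.14 with shCtrl labels and at 4.65 and 4.73 with DMSO. A cut-off peak could therefore have a higher fold than a control peak of the same site. The libraries labelled shKDM4B-814 had 24 and 0. Trimming kept 66.6% and 67.3% of the shKDM4B-813-labelled lists but 93.8% and 100% of the shKDM4B-814-labelled lists, so the second list labelled shKDM4B-814 held no peak at all below the limit.

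**Figure D2:**
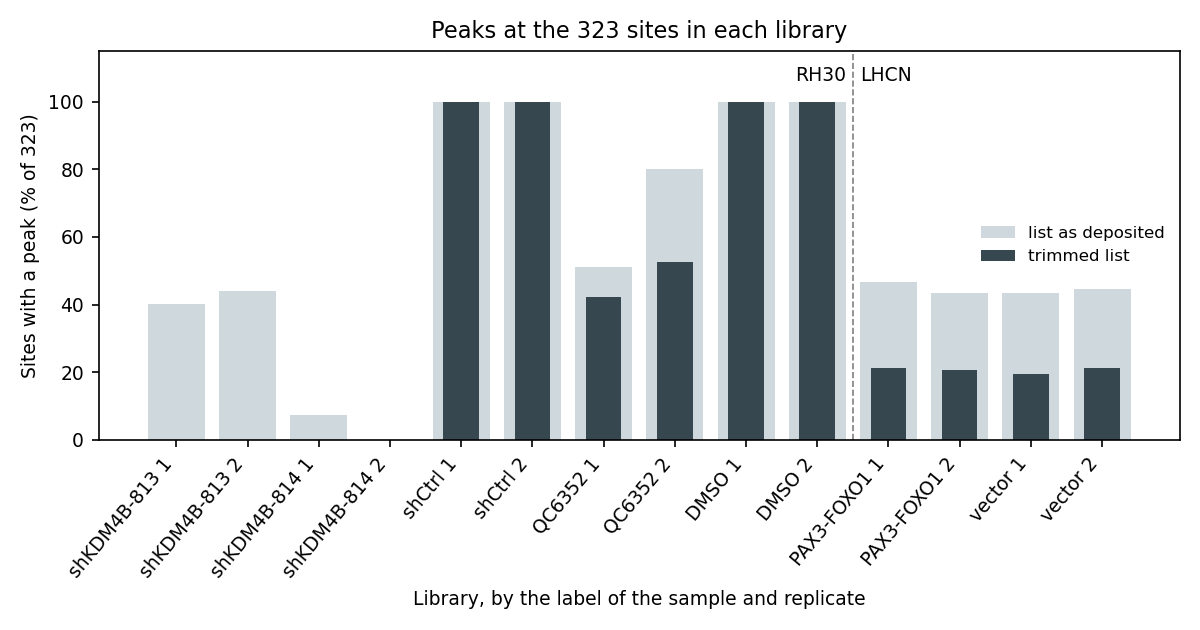
Share of the 323 sites with a peak (vertical axis, %) in each of the 14 libraries (horizontal axis, by sample label and replicate), in the trimmed list (dark bars) and in the list as deposited (light bars). The 0% and 100% bars of the 8 hairpin and DMSO libraries in trimmed lists are set by the choice of sites, while QC6352 lay at 42.1% and 52.6% and the LHCN libraries at 19.5% to 21.4%.

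At the edge of the rule, the weakest site inside it was on chromosome 1 from 20901603 to 20902146 (hg19, as all coordinates here), with a percentile of 0.612 in the first library labelled shCtrl. Just outside lay 763 control-open sites with a peak in exactly 1 library labelled shKDM4B. Their single peak was in the first or second library labelled shKDM4B-813 at 59 and 147 sites, and in the first or second labelled shKDM4B-814 at 220 and 337. The nearest were tied at a percentile of 0.156 in the second library labelled shKDM4B-814, one at 33244803 to 33246421 of chromosome 6 and one at 57484983 to 57487162 of chromosome 7.

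The site with the highest control strength was on chromosome 22 from 30695848 to 30696250. The deposited lists labelled shKDM4B held a single weak peak there, of fold 4.25 in the first library labelled shKDM4B-814. Its peak folds were 7.06 and 6.97 in the libraries labelled shCtrl, 8.37 and 6.17 with QC6352 and 9.30 and 7.77 with DMSO. It thus had a trimmed peak in all 6 RH30 libraries without a shKDM4B label, and no LHCN library listed a peak.

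On chromosome 17 from 27890884 to 27891463, the next strongest site had a weak peak of fold 4.86 in 1 library labelled shKDM4B-813. Its folds were 8.17 and 8.81 with shCtrl labels and 7.31 and 7.10 with DMSO. Neither QC6352 list and no LHCN list held a peak there. Among sites with no peak in any deposited list labelled shKDM4B, the strongest was on chromosome 2 from 45191870 to 45192277. Its folds were 8.91 and 7.70 with shCtrl labels, 5.46 and 4.98 with QC6352 and 6.98 and 9.12 with DMSO. The next, on chromosome 3 from 11236966 to 11237237, had no peak with QC6352, and folds of 5.94 and 6.60 with shCtrl labels and 6.64 and 6.08 with DMSO. In LHCN that site was well open, with folds of 24.5 and 31.7 with PAX3-FOXO1 and 29.7 and 21.6 with vector.

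QC6352 asks whether inhibiting the KDM4 enzymes with a compound leaves the same sites open. The 323 sites had a peak with QC6352 in 42.1% (95% Wilson interval 36.8 to 47.6) of cases in the first library and 52.6% (47.2 to 58.0) in the second, a mean of 47.4% ± 7.44 (SD, n = 2). The kept sites had a peak with QC6352 in 91.0% and 92.4% (91.7% ± 1.02). The gap between the sets was −44.3 percentage points on average and had the same direction in both libraries. No test over these 2 libraries was run. Over all 202912 regions, whether open in the controls or not, the QC6352 libraries had a peak at 40.2% and 42.6%. That was close to the share of the 323 sites in the first library and below it in the second. The regions were built in part from the peaks of both QC6352 lists, which raises that share, so it is no independent background. The Wilson intervals cover counting error over sites, which are not replicates. DMSO is both the vehicle of QC6352 and part of the rule, so all 323 sites have a DMSO peak by choice, as have all kept sites.

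By site, 97 of the 323 (30.0%) had a peak in both QC6352 libraries, against 82.3% of all control-open sites. Another 112 had a peak in 1 of them, and 114 (35.3%) had none, against 6.91% of all control-open sites. Among the sites with a QC6352 peak, the median percentile was 35.8 and 30.3 in the QC6352 lists, against 79.2 and 78.1 for kept sites. The site strongest with QC6352 was on chromosome 17 from 37355856 to 37357513, with folds of 13.5 and 10.9, a percentile of at least 84.1. Its folds were 4.05 and 4.92 as weak peaks in the libraries labelled shKDM4B-813, 5.20 and 6.60 with shCtrl labels, and 7.64 and 7.77 with DMSO. Its control percentiles were 8.71 and 44.9 with shCtrl labels and 47.7 and 52.2 with DMSO, so 1 of the 4 controls set it low. As deposited, the QC6352 lists differed in length, at 111272 and 176899 peaks, and the untrimmed lists held a peak at 51.1% and 80.2% of the 323 sites.

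Part of the gap to the kept sites moved with control strength. In the lowest band of control strength, QC6352 peaks stood at 39.0% and 51.8% of the 272 sites and at 78.9% and 81.3% of 3635 kept sites, a gap of −34.7 points. Between percentiles 25 and 50 they stood at 58.0% and 56.0% of 50 sites and at 83.4% and 85.5% of 5941 kept sites, a gap of −27.4 points. The gap was smaller within these bands than over all sites. Strength was not equal within a band, since the median lowest control percentile was 8.71 for the 323 sites and 15.0 for kept sites in the lowest band, and 29.2 and 37.1 in the next. Control-open sites also formed a graded series. From 0 to 4 shKDM4B-labelled libraries with a peak, the share with a peak in the first QC6352 library was 42.1%, 44.8%, 56.3%, 67.5% and 91.0%, and in the second 52.6%, 53.6%, 59.2%, 69.9% and 92.4%. The smallest step was that between 0 and 1 library. The series is ordered by peaks in RH30 libraries, so a rise in the QC6352 libraries is no independent result either. Control strength also grew along the series, with median lowest percentiles of 9.95, 15.0, 22.0, 27.3 and 67.7, and its part in the series was not tested beyond the bands.

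**Figure D3:**
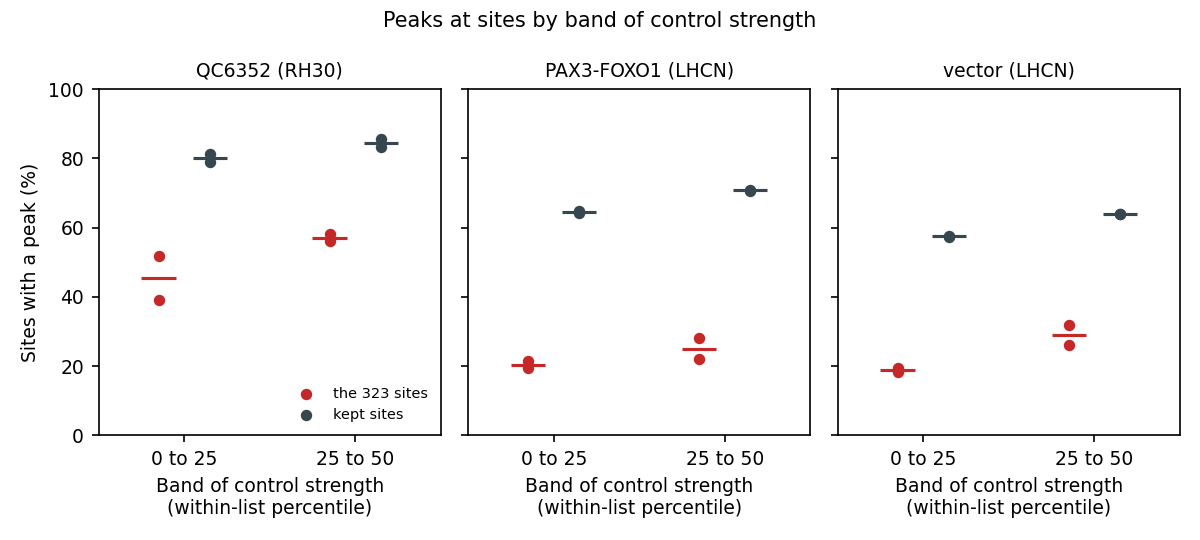
Share of sites with a peak (vertical axis, %) in 2 bands of control strength (horizontal axis) for QC6352, PAX3-FOXO1 and vector libraries, with the 323 sites left of the kept sites in each band. Points are the 2 libraries and lines their means; in the lowest band the 323 sites had 45.4% with QC6352, 20.4% with PAX3-FOXO1 and 18.9% with vector, against 80.1%, 64.4% and 57.5% for kept sites.

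The myoblast libraries show how many of the sites were also open in a muscle precursor line. In them, 21.4% and 20.7% of the 323 sites had a peak with PAX3-FOXO1 and 19.5% and 21.4% with vector, in lists trimmed to the same length. Over all 202912 regions the means were 33.5% with PAX3-FOXO1 and 30.8% with vector. Of the kept sites 81.2% and 80.7% had one with PAX3-FOXO1 and 73.1% and 73.2% with vector. No LHCN library had a peak at 226 of the 323 sites (70.0%), against 15.8% of kept sites, and all 4 had one at 40 (12.4%), against 69.8%. The level rests on where the LHCN lists end, here at a −log10 q of 15.8 to 22.4. With these lists trimmed to their own shortest, the mean share of the 323 sites over the 4 libraries was 43.7% in place of 20.7%. With a −log10 q of 10 or more in every list, the rule chose sites anew. The mean share was 36.3% for the 212 sites it then gave, so that value is not one of the 323. In the lowest band of control strength, within which the 323 sites were still the weaker set, the shares were 21.3% and 19.5% of the 323 sites and 64.7% and 64.2% of kept sites with PAX3-FOXO1. With vector they were 18.4% and 19.5% of the 323 sites and 57.5% and 57.4% of kept sites.

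The share of the 323 sites open in myoblasts was about the same with the fusion and with vector. Its mean was 21.1% ± 0.44 with PAX3-FOXO1 and 20.4% ± 1.31 with vector (SD, n = 2 each), a difference of 0.62 points (exact permutation test over libraries, two-sided, p = 1; adjusted over 3 sets p = 1). The libraries of the groups overlapped, and 2 against 2 libraries could not have given a p below 0.333 for any difference. The direction was not stable. For the 323 sites the difference was −0.31 points without the first vector library and 0.93 with LHCN lists trimmed to their own shortest. When peaks needed a −log10 q of 10 or more, the rule gave another 212 sites, chosen anew, and their difference was −7.55 points. For kept sites the shares were 81.0% ± 0.38 with PAX3-FOXO1 and 73.1% ± 0.084 with vector, without overlap (exact permutation test, p = 0.333, adjusted p = 0.5). The difference between the sets of sites in this respect was not tested.

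**Figure D4:**
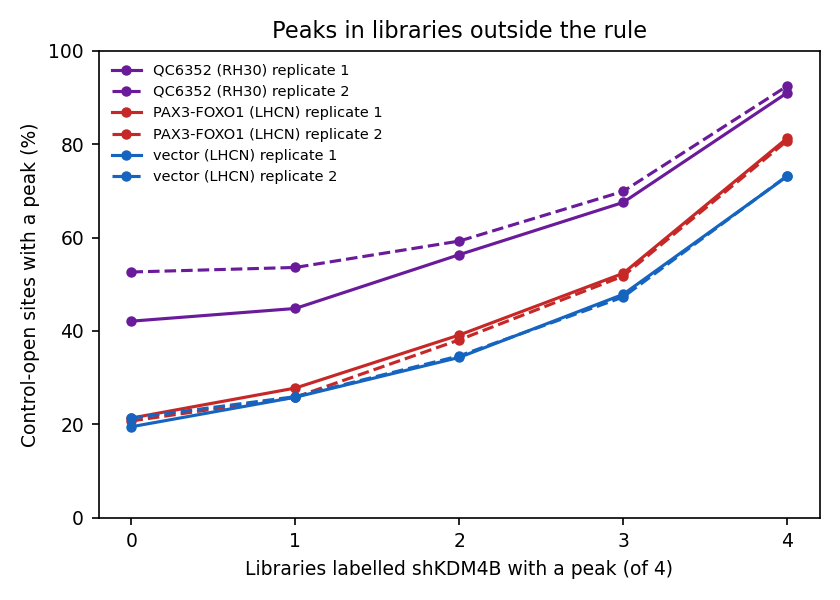
Share of control-open sites with a peak (vertical axis, %) in each QC6352, PAX3-FOXO1 and vector library, against the number of the 4 shKDM4B-labelled libraries with a peak (horizontal axis), where 0 marks the 323 sites. All 6 libraries stood highest at 4, and the PAX3-FOXO1 and vector libraries lay together at 0 (20.7% to 21.4% and 19.5% to 21.4%) but apart at 4 (80.7% to 81.2% and 73.1% to 73.2%).

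Single sites did differ between the trimmed fusion and vector lists. A peak with both PAX3-FOXO1 libraries and neither vector library was found at 11 of the 323 sites (3.41%), against 6.99% of control-open sites. The reverse was found at 2 (0.619%), against 0.895%. Only 2 sites stand behind the second share, which is near the background. The trimmed lists ended at folds of 7.23 and 9.15 with PAX3-FOXO1 and 9.52 and 9.46 with vector. Most of the 10 strongest of the 11 sites still had a peak in a vector list as deposited. At 84273566 to 84273845 of chromosome 16 the folds were 8.26 and 12.9 with PAX3-FOXO1 and 8.92 and 7.68 with vector. The site at 52462796 to 52463084 of chromosome 10 had no vector peak. The leading site of the 11 was on chromosome 4 from 156508970 to 156509288, with folds of 33.6 and 32.3 with PAX3-FOXO1 and a weak peak of fold 5.32 in 1 vector library. In RH30 the first library labelled shKDM4B-813 listed it at fold 5.67, tied with the trimming limit of that list. Its folds were 5.20 and 5.50 with shCtrl labels, 10.7 in 1 QC6352 library, and 7.31 and 6.42 with DMSO.

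The site strongest in myoblasts was on chromosome 7 from 154861689 to 154862522. Its folds were 52.4 and 66.1 with PAX3-FOXO1 and 97.9 and 99.9 with vector, a percentile of 97.2 or more in every LHCN list. In RH30 it had no peak in any list labelled shKDM4B, and folds of 6.69 and 5.50 with shCtrl labels, 5.22 in 1 QC6352 library, and 6.64 and 6.76 with DMSO. Of the 2 sites with vector peaks alone, that at 78600735 to 78601052 of chromosome 15 had folds of 6.97 and 6.58 with PAX3-FOXO1 and 12.5 and 13.6 with vector. The other, at 45931806 to 45932376 of chromosome 19, had 6.97 and 6.01 with PAX3-FOXO1 and 13.7 and 11.2 with vector. Both therefore kept weak peaks with the fusion in the deposited lists.

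Sites open in myoblasts were more often open with QC6352, among the 323 sites and among kept sites. Of the 226 sites with no LHCN peak, 32.3% and 50.9% had a peak in the first and second QC6352 library. Of the 40 sites with a peak in all 4 LHCN libraries, 65.0% and 60.0% did, so the difference was small in the second library. Among kept sites the shares were 79.3% and 83.0% with no LHCN peak, and 95.5% and 95.8% with all 4. The median lowest control percentile was 9.95 for the 226 sites and 13.3 for the 40. No library of QC6352 or LHCN had a peak at 92 sites (28.5%), against 1.74% of kept sites, and all 6 had one at 20 (6.19%), against 64.9%.

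By chromosome, the sites leaned to chromosomes 22, 19, 17 and 1. Chromosomes 17, 19 and 22 are known as gene-dense and GC-rich. The sites were 21 of 1043 control-open sites on chromosome 22 (2.01%, Wilson interval 1.32 to 3.06), 29 of 1492 on chromosome 19 (1.94%, 1.36 to 2.78), 39 of 2664 on chromosome 17 (1.46%) and 52 of 4845 on chromosome 1 (1.07%). On chromosome 8 it was 1 of 1156. Together the 4 leading chromosomes held 43.7% of the 323 sites (38.4 to 49.1), 22.7% of the kept sites and 24.0% of all control-open sites. In the lowest band of control strength they held 43.8% of the sites and 27.6% of control-open sites. These chromosomes were picked for their shares, so no test is given. Chromosomes 22, 19 and 17 led under every way of breaking ties at the trimming limit that was tried, but chromosome 1 did not stay among the 4. By number order chromosome 11 passed it (1.26% against 1.07%), with tied peaks dropped chromosomes 20 and 14 did (0.799% and 0.794% against 0.767%), and with them kept chromosomes 20 and 16 did (1.28% and 1.20% against 1.14%).

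The same chromosomes also took more of the peaks in the libraries labelled shCtrl. They held 19.2% and 22.4% of the trimmed peaks in the libraries labelled shKDM4B-813, 20.6% and 22.6% in those labelled shKDM4B-814, and 30.3% and 30.7% in those labelled shCtrl. With QC6352 they held 27.9% and 26.0%, and with DMSO 20.7% and 22.7%. The shCtrl-labelled libraries were thus the highest of the RH30 libraries, and the DMSO libraries lay within or just above the range of those labelled shKDM4B. Without both libraries labelled shCtrl the rule gave 4286 sites, of which 22.0% lay on these chromosomes. Without both DMSO libraries it gave 6920 sites, of which 46.5% did. The part of the difference between libraries in the lean of the 323 sites was not tested.

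**Figure D5:**
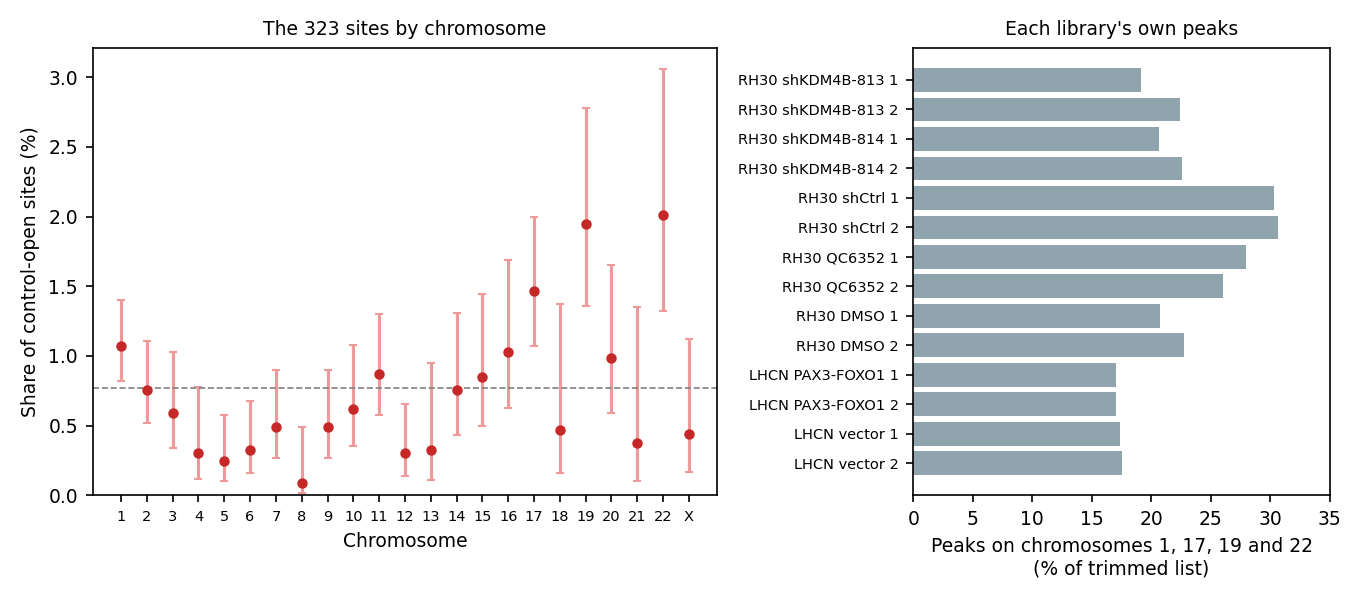
Left, the 323 sites as a share of control-open sites (vertical axis, %) on each chromosome, with 95% Wilson intervals and the share over all chromosomes (0.771%) as a dashed line. Right, the share of each library's trimmed peaks on chromosomes 1, 17, 19 and 22 (horizontal axis, %), which was 30.3% and 30.7% in the libraries labelled shCtrl and 19.2% to 22.6% in those labelled shKDM4B.

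The sites lay in surroundings rich in peaks, as did the sites just outside the rule, and not close to each other. Within 50000 bp on either side, the median number of other RH30 regions was 27 (quartiles 18 and 37) for the 323 sites, 25 (14 and 36) for the 763 sites with a peak in 1 library labelled shKDM4B, 10 for kept sites of the lowest strength band and 11 for all kept sites. The median distance to the nearest kept site was 3285 bp, against 14073 bp for kept sites of the lowest band. Within 1000 bp of a kept site lay 94 of the 323 (29.1%), against 21.9% of the 763 and 11.1% of kept sites in the lowest band. Another of the 323 sites lay within 50000 bp for only 27 of them, and the smallest spacing was 8622 bp.

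The 323 sites fell into 245 windows of 1 Mb, of which 186 held a single site and none more than 4. A pair of neighbouring windows near the end of chromosome 22, starting at 49000001 and 50000001, held 4 each, of 34 and 59 control-open sites. Windows starting at 43000001 on chromosome 17, at 110000001 on chromosome 1 and at 66000001 on chromosome 16 held 4 each, of 64, 82 and 82 control-open sites. The sites had a median region width of 773 bp (quartiles 486 and 1155), against 953 bp for kept sites. In the lowest strength band the order turned, at 790 bp for the 323 sites and 686 bp for kept sites.

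The opposite pattern, a peak in all 4 shKDM4B-labelled libraries and in no control library, was found at 1291 regions (0.636% of all). With QC6352, 42.1% and 52.6% of the 323 sites had a peak, and 41.5% and 50.3% of the 1291 regions. In myoblasts the 323 sites had means of 21.1% with PAX3-FOXO1 and 20.4% with vector, and the 1291 regions had 48.9% ± 0.49 with PAX3-FOXO1 and 42.3% ± 0.82 with vector (SD, n = 2). The 4 leading chromosomes, which were picked for the 323 sites, held 43.7% of them and 11.2% of the 1291 regions. By choice the 1291 regions have no peak in the shCtrl-labelled libraries, the RH30 libraries richest in peaks there. The contrast is therefore no test. The median number of other regions within 50000 bp was 27 for the 323 sites and 4 for the 1291 regions.

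Grouped by the names inside the lists instead of the titles, the rule gave another set. A peak in both DMSO libraries and both libraries named shCtrl, and none in those named sh813 or sh814, was found at 597 regions (0.294% of all). None of the 323 sites can be among them, since the libraries labelled shCtrl must have a peak by one grouping and none by the other. With QC6352, 42.1% and 52.6% of the 323 sites had a peak, and 33.2% of the 597 in either library. In LHCN the 597 had a peak in 38.1% ± 0.12 with PAX3-FOXO1 and 31.3% ± 0.71 with vector (SD, n = 2), a difference of 6.78 points (exact permutation test, p = 0.333, the smallest possible). Their median width was 420 bp, and 12.7% lay on chromosomes 1, 17, 19 and 22. These chromosomes were picked for the shares of the 323 sites. The rule by names also allows no peak in the libraries labelled shCtrl, the RH30 libraries with the highest share of peaks there. The 12.7% is therefore no test of the lean.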

How the data were processed

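The libraries were ATAC-seq of RH30 and LHCN cells, 2 per group, and the authors deposited 1 narrowPeak list for each. Per the submitters' processing notes, MACS2 2.1.1, BWA 0.7.12-r1039, SAMtools 1.3.1 and Picard 1.65 were used, with hg19; no source at hand states settings, read filters or a Tn5 shift. In each list the authors' peak caller computed, before the files were deposited, a score, a fold over background (a ratio), a −log10 p and a −log10 q for every peak. The score and −log10 p were not used, and summit positions entered a single alternative. Within a list each fold has a single q, so both rank peaks alike. Read depth is unknown.

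The 10 RH30 lists were trimmed to the shortest by −log10 q, with ties going to fold and then position (chromosome names in text order), and merged where they shared 1 bp. LHCN lists were trimmed to the same length. From 292 to 15215 peaks per list tied at the limit; percentiles are mid-ranks. The tests were exact permutations over libraries (SciPy 1.17.1, Python 3.11.15). The choice of sites by the rule was checked on simulated, untrimmed lists drawn from the merged regions. Trimming, ties and the merging of partly overlapping peaks were not covered by that check. Named regions follow a rule: the 10 strongest sites by control percentile, the 10 strongest without any deposited shKDM4B-labelled peak, the 10 strongest with QC6352, in LHCN, and with PAX3-FOXO1 or vector alone, those nearest the limits, and the fullest windows; the leading ones are printed. The members, lists and tests were chosen with earlier results of these data known; the grouping by list names, the tie settings and the rules without whole groups were added after seeing the data. No hg19 genome or annotation was used here, so no gene names, sequences, promoter shares or GC contents are given.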

Additional observations from a re-analysis of the deposited data

How the results depend on the processing

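The number of sites moved by over 1.5 times in 17 of 24 settings. It was 629 with the lists as deposited, 212 with a −log10 q of 10 or more, 215 with the 50000 strongest peaks, 752 when peaks had to cover 50% of a region and 120 when the shKDM4B-labelled lists were used as deposited. Leaving out 1 library gave 382 to 867. It was 377 with windows on summits, 324 with ties by chromosome number, 245 with tied peaks dropped and 372 with them kept. Ranking by fold changed nothing, since it gives the same order.

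The share with a QC6352 peak was 55.2% at −log10 q of 10, 37.1% with the shKDM4B-labelled lists as deposited, 65.6% with the QC6352 lists as deposited, and 38.7% to 52.6% without 1 library. Both sets were chosen by RH30 peaks, which favours a negative gap to kept sites whatever the setting. That gap was negative in all settings run except the band of percentiles 50 to 75, which held 1 of the sites (8.62 points). It was −32.2 points at −log10 q of 10, −36.1 with 50000 peaks, −32.6 with 50% coverage, −53.6 with the shKDM4B-labelled lists as deposited, −28.8 with the QC6352 lists as deposited, −34.7 and −27.4 in the strength bands, and −51.9 to −39.8 without 1 library.

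The share in LHCN was 27.1% as deposited, 36.3% at −log10 q of 10, 29.5% with 50000 peaks, 22.7% with 50% coverage, 17.3% with windows of 200 bp on either side of summits, 19.2% with the shKDM4B-labelled lists as deposited, 43.7% with LHCN lists trimmed to their own shortest, 19.6% with ties kept, 19.7% and 27.0% in the bands, and 13.0% to 24.8% without 1 library. The fusion difference of 0.62 points changed sign to −7.55 at −log10 q of 10 and −2.79 with 50000 peaks, ran from −0.32 to 2.39 without 1 library, and had an exact permutation p of 0.333 or above in every setting with 2 libraries a group.

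The median width was 1004 bp at −log10 q of 10, 934 with 50000 peaks, 1556 with 50% coverage, 644 with those windows, 639 with the shKDM4B-labelled lists as deposited, and 576 to 832 without 1 library. The 4 leading chromosomes held 31.3% as deposited, 37.2% with 50% coverage, 37.6% with ties kept, and 33.7% to 45.1% without 1 library.

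Other groupings and leaving out whole groups also moved the values. Under the list names the values were 597 sites, 33.2%, −58.5 points, 34.7% in LHCN, 420 bp and 12.7% on the leading chromosomes. Without both shCtrl-labelled libraries they were 4286, 26.6%, −62.1, 30.3%, a fusion difference of −1.96, 386.5 bp and 22.0%. Without those labelled shKDM4B-814 they were 1598 sites, 28.6% in LHCN and 33.1% on those chromosomes. Without those labelled shKDM4B-813 they were 685, 55.5%, −34.2 and 29.0%. Without DMSO they were 6920, 28.3%, −62.7, 3.96%, 46.5% on the leading chromosomes and a fusion difference of −0.24. With DMSO and the shKDM4B-813-labelled libraries alone they were 8940, 33.0%, −53.3, 32.8%, 432 bp and 20.9%.

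Replicate numbers mark no shared culture in the labels; in the replicate block the fusion difference was 0.62 points (1.86 and −0.62 by number; exact permutation over sign changes, p = 1). GC content and gene starts were not run, since no hg19 reference was used. With 2 libraries a group and unknown depth, absence means only that no peak ranked in the trimmed list.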
